A study of Mus musculus with 27 samples.

Results

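MicroRNA miR-126 is encoded in the mouse by a pair of hairpins that lie on opposite strands of the same stretch of chromosome 2, miR-126a on the plus strand and miR-126b on the minus strand. Their 4 mature products, mmu-miR-126a-5p, mmu-miR-126a-3p, mmu-miR-126b-5p and mmu-miR-126b-3p, were found by exact match of the name among 2035 mature microRNA loci that carry 1900 names, and each of the 4 had 1 locus. The pair was chosen by its levels over the same 4 genotypes that are described here. The study used CJ7 mouse embryonic stem (ES) cells, either wild-type or lacking Eed, Ezh2 or Jarid2 (Eed-/-, Ezh2-/-, Jarid2-/-), all kept in serum medium with the cytokine LIF. The Polycomb complex PRC2 methylates histone H3 in silent chromatin, with Ezh2 as its enzyme, Eed as a further core subunit and Jarid2 as a cofactor. The labels list 7 small RNA samples, 1 of them Jarid2-/- and 2 of every other genotype, and the analysed tables held 1 count column per genotype. No source used here says whether a column pools both samples or how many clones each mutant line represents.

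MicroRNA hairpins are cut into a duplex of a 5p and a 3p arm, of which 1 arm is usually loaded into Argonaute, and bases 2 to 8 of the loaded arm, the seed, pair with target messenger RNAs. MiR-126a lies in an intron of Egfl7, a gene of endothelial cells, and is best known as a microRNA of the vessel wall and of blood progenitors. Its 3p arm represses Spred1 and Pik3r2, inhibitors of the response to vascular endothelial growth factor, and the adhesion molecule Vcam1. Its 5p arm is also active in endothelium, where it represses Dlk1, a protein-coding gene of the same imprinted domain as Gtl2. MiR-126b is the antisense hairpin, read from the strand opposite to Egfl7.

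The mature sequences are shown because both arms of each hairpin resemble the same arm of the antisense hairpin, which bears on how reads were assigned. As given in the deposited tables, 5′ to 3′, with the seed in capitals, they are as follows.
miR-126a-5p: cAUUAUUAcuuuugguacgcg
miR-126b-5p: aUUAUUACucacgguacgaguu
miR-126a-3p: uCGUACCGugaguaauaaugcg
miR-126b-3p: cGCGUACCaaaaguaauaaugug
On mouse build mm9 these lie at chr2:26446885-26446905 (miR-126a-5p, plus strand, 21 bases), chr2:26446922-26446943 (miR-126a-3p, plus strand, 22 bases), chr2:26446919-26446940 (miR-126b-5p, minus strand, 22 bases) and chr2:26446883-26446905 (miR-126b-3p, minus strand, 23 bases). The 4 seeds differ, and 0 other names in the tables shared any of them. MiR-126a-5p and miR-126b-3p are exact complements over 21 bases, and miR-126a-3p and miR-126b-5p over 19 bases. Aligned without gaps, miR-126b-5p matched miR-126a-5p at 16 of 20 bases and differed by U11C, U12A, U13C and C20A, counted from the 5′ end of miR-126a-5p. MiR-126b-3p matched miR-126a-3p at 17 of 22 bases and differed by U1G, G8A, U9A, G10A and C21U, counted from the 5′ end of miR-126a-3p.

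The hairpins themselves are shown because the 4 products come from 1 double-stranded sequence. From RefSeq (build GRCm38.p6), with the mature arms in capitals, they read as follows.
Mir126a: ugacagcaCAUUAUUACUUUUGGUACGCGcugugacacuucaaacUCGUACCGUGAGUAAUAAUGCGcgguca
Mir126b: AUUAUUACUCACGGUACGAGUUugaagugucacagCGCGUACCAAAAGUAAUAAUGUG
The 58 bases of the miR-126b entry are contained in the reverse complement of the 73 bases of the miR-126a entry. Predicted minimum free energies were -31.2 kcal/mol with 27 base pairs for the miR-126a entry and -19.3 kcal/mol with 21 base pairs for the shorter miR-126b entry. In the same RefSeq annotation both hairpins fall inside the span of Egfl7, which is transcribed on the plus strand like miR-126a. No other microRNA locus of the tables lay within 100 kb, and the nearest, miR-6996-5p at 121249 bp, had 0 to 5 counts per column.

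Total microRNA counts were 23793733 (wild-type), 42293019 (Eed-/-), 32074712 (Ezh2-/-) and 8485806 (Jarid2-/-), and levels are given as CPM, counts scaled to a common total of 1000000. A single column per genotype leaves no replicates to compare, so genotypes were not tested against each other and all differences are descriptions. Ranges in parentheses are exact 95% intervals, Poisson for levels and binomial for folds and shares. They cover counting error only, and PCR copies of a molecule are not independent, so the true errors are wider. A locus was called higher or lower at a log2 ratio of at least 1 in size, with 1 CPM added to each level, provided that either column held 10 counts or more. The median log2 ratio of all tested loci against wild-type was 0.08 in Eed-/-, -0.44 in Ezh2-/- and -0.17 in Jarid2-/-. With TMM scaling the Ezh2-/- median was 0.09, and 14.4% of loci were higher and 16.3% lower in place of 4.90% and 24.5%. The corresponding shares were 11.0% and 18.9% with median-ratio size factors, and 9.30% and 18.5% with the authors' RPM denominators. MicroRNA counts made up 9.66% to 15.8% of those denominators. Those denominators also gave 31.9% higher and 9.67% lower in Eed-/-, in place of 17.5% and 15.0%, and 26.6% and 18.5% in Jarid2-/-, in place of 16.3% and 22.8%. Median-ratio factors gave 11.9% and 17.7% in Eed-/-.

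MiR-126a-3p, known to repress Spred1, Pik3r2 and Vcam1, was higher than wild-type in cells without either core subunit and lower in cells without Jarid2. Counts were 2314 (wild-type), 20876 (Eed-/-), 10247 (Ezh2-/-) and 217 (Jarid2-/-). These correspond to levels of 97.3 CPM (93.3 to 101.3), 494 CPM (487 to 500.3), 319 CPM (313 to 326) and 25.6 CPM (22.3 to 29.2) in the same order. The authors' deposited RPM values were 9.39, 78.1, 42.0 and 3.49. On the CPM scale the order of levels was Eed-/-, Ezh2-/-, wild-type, Jarid2-/-, and that of the highest 2 turned with TMM and median-ratio factors (log2 ratios of Eed-/- to Ezh2-/- of 0.63 as CPM, -0.23 and -0.11). Without the added 1 CPM, the level was 5.08-fold higher than wild-type in Eed-/- (4.86 to 5.30) and 3.28-fold higher in Ezh2-/- (3.14 to 3.44). In Jarid2-/- it was 3.80-fold lower (3.31 to 4.39). Relative to the median of all tested loci the log2 ratios were 2.25, 2.15 and -1.71, and every scaling tried gave the same calls against wild-type. By size of ratio miR-126a-3p ranked 45 from the top of 1096 tested loci in Eed-/- and 13 from the top of 1000 in Ezh2-/-, and 137 from the bottom of 950 in Jarid2-/-.

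MiR-126a-5p, the other arm of the same hairpin, differed less between genotypes, by 1.31-fold at most as CPM of the column totals and by 2.27-fold with TMM. It had 8013, 13174, 12598 and 2537 counts in wild-type, Eed-/-, Ezh2-/- and Jarid2-/-. The levels were 337 CPM (329 to 344), 311 CPM (306 to 317), 393 CPM (386 to 400) and 299 CPM (287 to 311). Ezh2-/- was highest and wild-type next, while the Eed-/- and Jarid2-/- intervals overlapped. Its log2 ratios to wild-type were -0.11 in Eed-/-, 0.22 in Ezh2-/- and -0.17 in Jarid2-/-, none of them called. The Eed-/- and Jarid2-/- ratios were 0.60 and 0.32 with the RPM denominators, so their sign depends on the scaling. The range over the columns, of levels with 1 CPM added, was 1.31-fold as CPM, 1.59-fold with the RPM denominators, 2.10-fold with median-ratio factors and 2.27-fold with TMM. Of 723 names with at least 50 counts in a column, 13, 54, 166 and 195 had a narrower range in the same order of scalings. The range of miR-126a-3p lay between 18.6-fold and 21.6-fold under these 4 scalings.

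**Figure D1:**
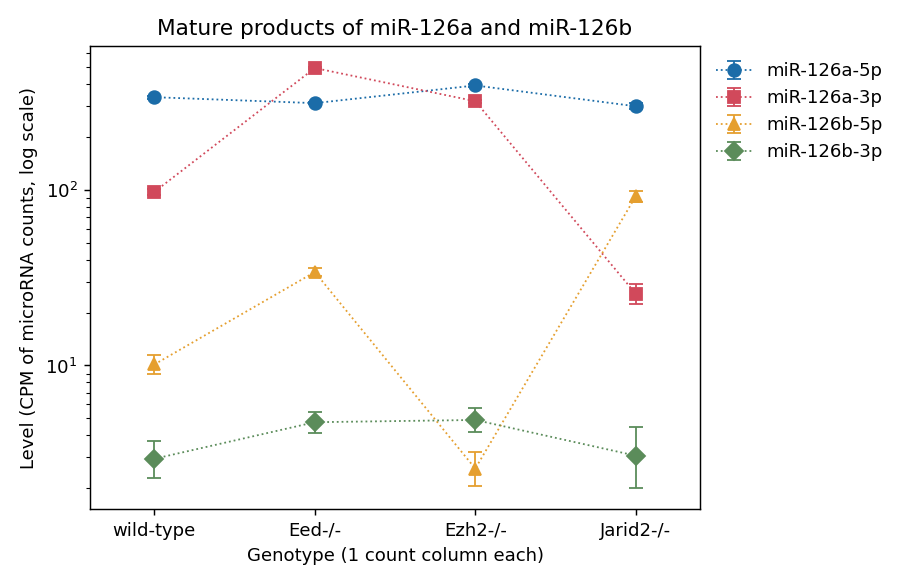
Level of each mature product (vertical axis, CPM of microRNA counts, log scale) in the single count column of each genotype (horizontal axis), with exact 95% Poisson intervals as bars; dotted lines join the values of 1 product and carry no order. MiR-126a-5p lies between 299 and 393 CPM throughout, while miR-126a-3p runs from 25.6 to 494 CPM and miR-126b-5p from 2.59 to 91.9 CPM.

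With the 3p arm varying more than the 5p arm, the more abundant arm of miR-126a differed between genotypes. In wild-type the 5p arm made up 77.6% of the counts of both arms (76.8 to 78.4%). The share was 38.7% in Eed-/- (38.2 to 39.2%), where the 3p arm was the more abundant one, and 55.1% in Ezh2-/- (54.5 to 55.8%). In Jarid2-/- the 5p arm held 92.1% (91.1 to 93.1%). As counts of 3p per count of 5p, the 4 ratios were 0.289 (wild-type), 1.58 (Eed-/-), 0.813 (Ezh2-/-) and 0.0855 (Jarid2-/-). These shares are taken within a column and do not depend on its scaling.

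Shifts of this kind were common among hairpins. Of hairpins with at least 50 counts on each arm in some column, 41.2% of 233 shifted their 3p to 5p ratio at least 2-fold between Eed-/- and wild-type, 37.3% of 233 in Ezh2-/- and 48.3% of 232 in Jarid2-/-. The log2 shift of miR-126a was 2.46 in Eed-/-, 1.49 in Ezh2-/- and -1.75 in Jarid2-/-. In size, 29 hairpins exceeded it in Eed-/-, 52 in Ezh2-/- and 63 in Jarid2-/-. Between Eed-/- and Jarid2-/- the shift was 4.21, which 5 of 234 hairpins exceeded in either direction, against a background of 39.7% past 2-fold. Between Ezh2-/- and Jarid2-/- it was 3.24 (24 of 212 hairpins larger, 52.8% past 2-fold), and between Eed-/- and Ezh2-/- it was 0.96 (108 of 234 larger, 45.7% past 2-fold). A hairpin with several loci counts separately at each locus. The larger shifts between Eed-/- and Jarid2-/- thus include miR-124 on chromosomes 2, 3 and 14 (7.05, 7.07 and 7.01).

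**Figure D2:**
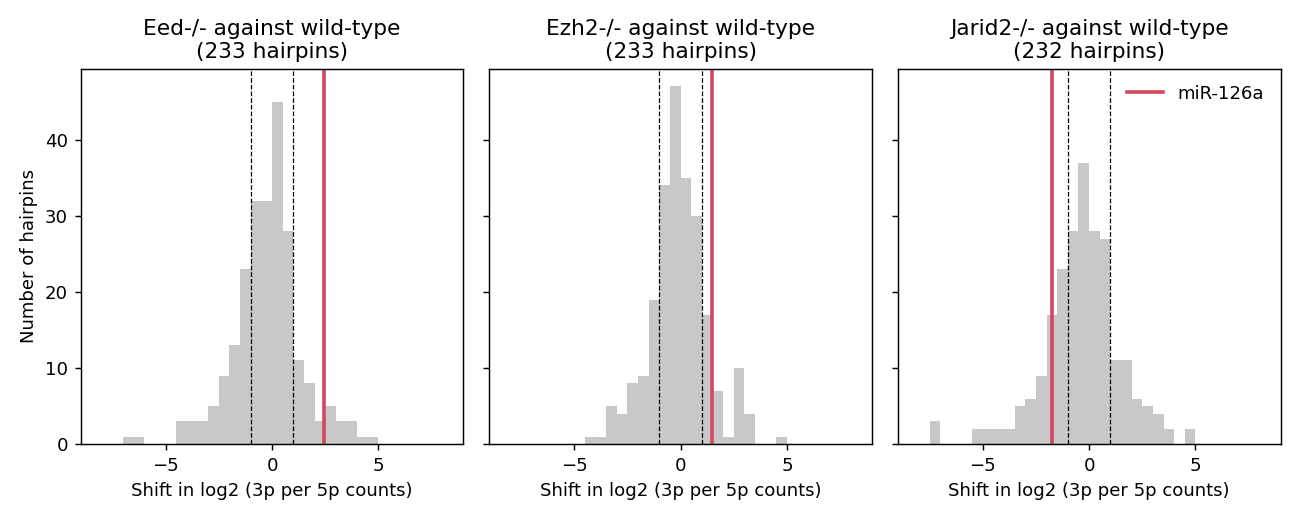
Histograms of the change in log2 (3p per 5p counts) from wild-type (horizontal axis) over hairpins (vertical axis, number of hairpins) for each mutant, with dashed lines at 2-fold and a red line at miR-126a. The red line stands at 2.46 in Eed-/-, 1.49 in Ezh2-/- and -1.75 in Jarid2-/-, where 29, 52 and 63 hairpins shifted further in either direction.

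MiR-126b-5p, the antisense product at the site of miR-126a-3p, did not follow miR-126a-3p. Counts were 241 (wild-type), 1439 (Eed-/-), 83 (Ezh2-/-) and 780 (Jarid2-/-). The levels were 10.1 CPM (8.89 to 11.5), 34.0 CPM (32.3 to 35.8), 2.59 CPM (2.06 to 3.21) and 91.9 CPM (85.6 to 98.6). Jarid2-/-, the genotype with the lowest miR-126a-3p, thus had the highest miR-126b-5p. Compared with wild-type the level was 9.08-fold higher in Jarid2-/- (7.84 to 10.5) and 3.36-fold higher in Eed-/- (2.93 to 3.87). In Ezh2-/- it was 3.91-fold lower (3.04 to 5.09). The log2 ratios relative to the median of all loci were 3.24, 1.57 and -1.19 for Jarid2-/-, Eed-/- and Ezh2-/-. In Jarid2-/- miR-126b-5p ranked 10 from the top of 950 tested loci. Its level was higher in Eed-/- and Jarid2-/- than in wild-type and Ezh2-/-, a split of the columns also seen at unrelated hairpins. As log2 of 3p per 5p counts, miR-744 had 0.58 (wild-type), -2.54 (Eed-/-), 0.71 (Ezh2-/-) and -2.50 (Jarid2-/-). MiR-17 had -7.03, -4.20, -7.03 and -4.12 in the same order. MiR-126a did not split this way, with -1.79, 0.66, -0.30 and -3.54. What the split reflects was not tested.

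MiR-126b-3p, the antisense product at the site of miR-126a-5p, had the fewest counts of the members in 3 of the 4 columns, and the fewest but for miR-126b-5p in Ezh2-/-. Counts were 70 (wild-type), 201 (Eed-/-), 157 (Ezh2-/-) and 26 (Jarid2-/-). The levels were 2.94 CPM (2.29 to 3.72), 4.75 CPM (4.12 to 5.46), 4.89 CPM (4.16 to 5.72) and 3.06 CPM (2.00 to 4.49). The wild-type and Jarid2-/- levels were not distinguishable at this depth, nor were those of Eed-/- and Ezh2-/-. Its log2 ratios to wild-type were 0.55 in Eed-/-, 0.58 in Ezh2-/- and 0.04 in Jarid2-/-, none called, and the Ezh2-/- ratio was 1.02 relative to the median of all loci.

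**Figure D3:**
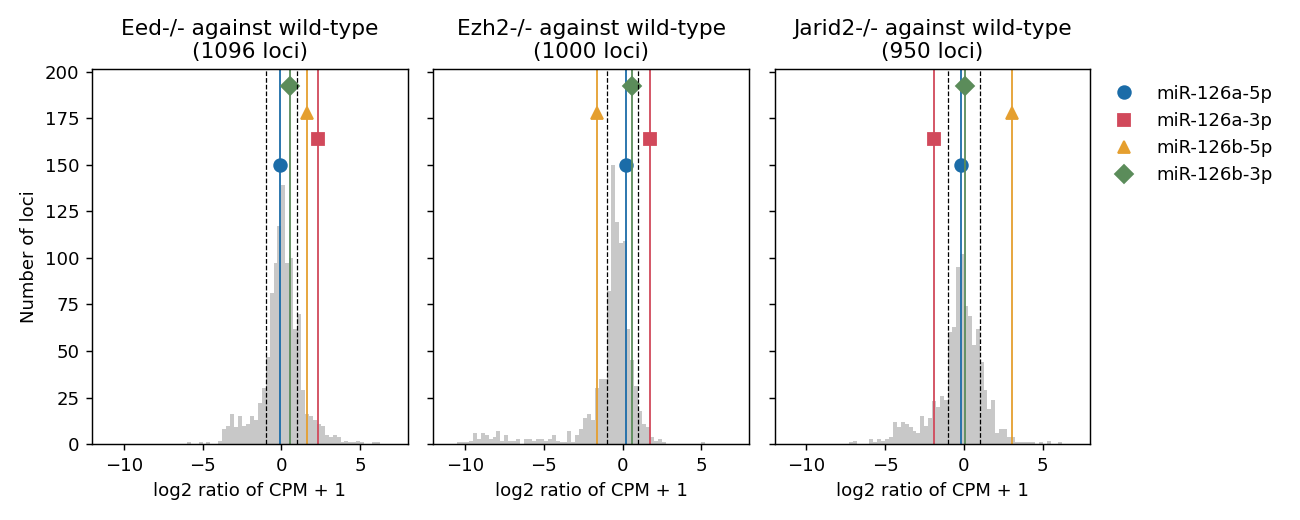
Histograms of log2 ratios of CPM plus 1 against wild-type (horizontal axis) over tested loci (vertical axis, number of loci) for each mutant, with vertical lines and symbols at the 4 members and dashed lines at 2-fold; the height of a symbol carries no value. MiR-126a-3p and miR-126b-5p stand on the same side in Eed-/- (2.33 and 1.65) and on opposite sides in Ezh2-/- (1.71 and -1.63) and Jarid2-/- (-1.89 and 3.06).

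In counts of calls, Eed-/- had 2 of the 4 members higher and 0 lower, where 17.5% of all tested loci were higher and 15.0% lower. Ezh2-/- had 1 higher and 1 lower, where 4.90% were higher and 24.5% lower. Jarid2-/- had 1 higher and 1 lower, where 16.3% were higher and 22.8% lower. MiR-126b-3p was called higher as well in Ezh2-/- with TMM (1.19) and median-ratio factors (1.02), and in Eed-/- with the RPM denominators (1.09), and the lower call in Ezh2-/- was lost with 10 CPM added (-0.68). The 3 comparisons share the wild-type column, and the 4 members share 1 genomic sequence.

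Between mutants, miR-126a-3p was 19.3-fold higher in Eed-/- than in Jarid2-/- (16.9 to 22.2) and 12.5-fold higher in Ezh2-/- than in Jarid2-/- (10.9 to 14.4). In the first pair 18.9% of 1073 loci were called higher and 7.18% lower, and in the second 8.92% of 930 and 33.0%. MiR-126b-5p was 35.5-fold lower in Ezh2-/- than in Jarid2-/- (28.3 to 45.1), the widest difference between any 2 columns among the members. It was 13.1-fold higher in Eed-/- than in Ezh2-/- (10.5 to 16.6), where 35.7% of 1091 loci were called higher and 4.58% lower, and 2.70-fold lower in Eed-/- than in Jarid2-/- (2.47 to 2.95). MiR-126a-5p and miR-126b-3p were not called in any of the 3 pairs of mutants. With TMM, miR-126a-5p was called lower in Eed-/- than in Ezh2-/-, at -1.19, and both products were called higher in Ezh2-/- than in Jarid2-/-, at 1.15 and 1.16.

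At the site of miR-126a-3p the strand with more counts was reversed in Jarid2-/-. Of the counts on both strands there, the minus-strand product miR-126b-5p made up 9.43% in wild-type (8.33 to 10.6%), 6.45% in Eed-/- (6.13 to 6.78%) and 0.803% in Ezh2-/- (0.640 to 0.995%). In Jarid2-/- it made up 78.2% (75.5 to 80.8%), or 3.59 counts of miR-126b-5p per count of miR-126a-3p (3.09 to 4.20). At the site of miR-126a-5p, on the other side of the same hairpin, the minus-strand share lay between 0.866% in wild-type (0.676 to 1.09%) and 1.50% in Eed-/- (1.30 to 1.72%), with 1.01% in Jarid2-/- (0.664 to 1.48%). The reversal was thus seen at 1 of the 2 sites. Over all 4 members, miR-126b held 2.92% (wild-type), 4.60% (Eed-/-), 1.04% (Ezh2-/-) and 22.6% (Jarid2-/-) of the counts. Within miR-126b the 5p arm made up 77.5% (72.4 to 82.0%), 87.7% (86.1 to 89.3%), 34.6% (28.6 to 41.0%) and 96.8% (95.3 to 97.9%) of both arms in the same order. In Eed-/- and Ezh2-/- the hairpins therefore favoured different arms, and in wild-type and Jarid2-/- both favoured 5p.

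**Figure D4:**
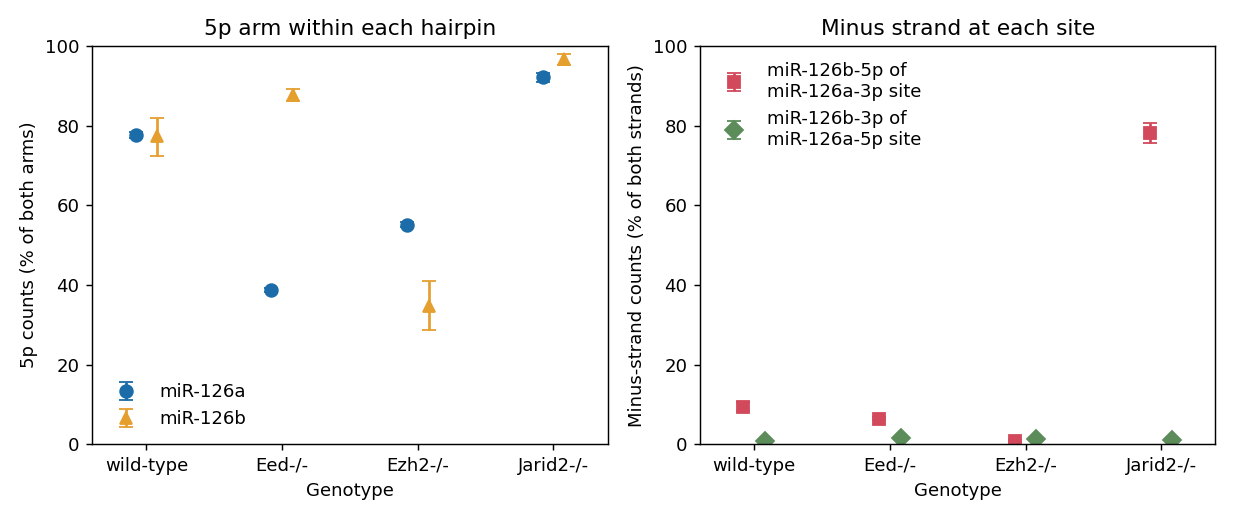
Left, counts of the 5p arm as a percentage of both arms for miR-126a and miR-126b in each genotype; right, minus-strand counts as a percentage of both strands at the sites of miR-126a-3p and miR-126a-5p; bars are exact 95% binomial intervals. The minus-strand share at the miR-126a-3p site is 78.2% in Jarid2-/- and at most 9.43% elsewhere, while that at the miR-126a-5p site is at most 1.50%.

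Because the antisense arms resemble the sense arms printed above, their counts were set against each other. Per count of miR-126a-5p the counts of miR-126b-5p were 0.0301 (wild-type), 0.109 (Eed-/-), 0.00659 (Ezh2-/-) and 0.307 (Jarid2-/-), a 46.7-fold range over the columns. Per count of miR-126a-3p there were 0.0303, 0.00963, 0.0153 and 0.120 counts of miR-126b-3p, a 12.4-fold range. MiR-126b-5p and miR-126a-5p are 7 edits apart, and miR-126b-3p and miR-126a-3p are 6. The part of read assignment in these counts was not tested.

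The same strand shares were taken at other microRNA arms that overlap on opposite strands. The tables hold 40 such pairs with at least 10 shared bases, and 17 had at least 50 counts over both strands in each column. The shares below are limited to these 17, since those of the other pairs rest on few reads in at least 1 column. Some of the pairs left out had many reads elsewhere. In Eed-/- the weaker strand held 16.9% at miR-299b-5p opposite miR-299a-3p and 12.3% at miR-299a-5p opposite miR-299b-3p. Both pairs were left out for Ezh2-/- alone. Outside the 17, the stronger strand also differed between columns at miR-219a-2-3p opposite miR-219b-5p. Counts there were 104 and 17 in Eed-/- and 20 and 30 in Ezh2-/-. In 10 of the 17 the weaker strand stayed under 1% in every column, and in 1 of the 17, miR-126a-3p with miR-126b-5p, the stronger strand differed between columns. The pairs with most counts, miR-292-3p, miR-290a-5p, miR-292-5p and both loci of miR-24-3p, had at most 7 counts on the weaker strand in any column. Among the 17, 2 pairs other than miR-126 reached 5% on the weaker strand. The share of miR-374c-5p opposite miR-374b-3p ran from 2.26% in Ezh2-/- to 47.2% in Eed-/-, and that of miR-3074-1-3p opposite miR-24-1-5p from 25.8% in wild-type to 48.4% in Ezh2-/-. The share at the miR-126a-3p site spanned 77.4 percentage points, the widest range of the 17, and that at the miR-126a-5p site 0.637. Since the miR-126 pair was chosen by its levels in these same columns, its place among the 17 is a description only.

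**Figure D5:**
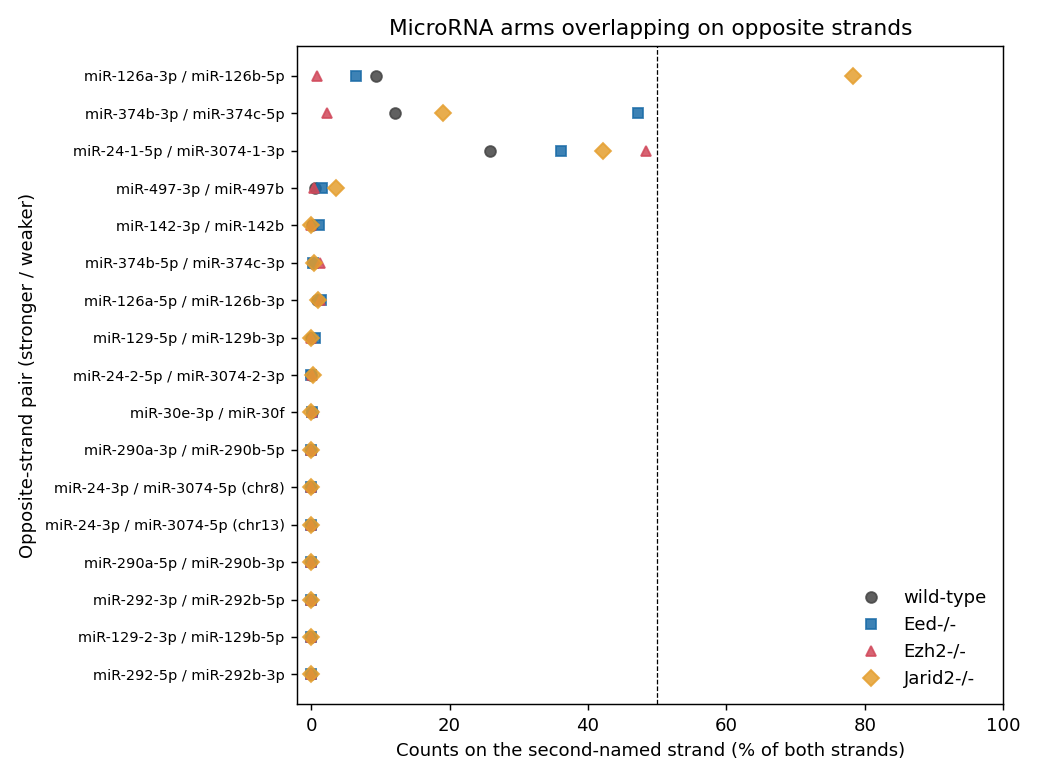
Counts on the weaker strand as a percentage of both strands (horizontal axis) for the 17 pairs of microRNA arms that overlap on opposite strands and have at least 50 counts in each column (vertical axis, stronger and weaker name); symbols are genotypes and the dashed line marks equal counts. The single symbol beyond the line is Jarid2-/- at miR-126a-3p / miR-126b-5p, at 78.2%.

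The microRNAs whose levels over the 4 columns were most like those of each member were taken by Euclidean distance between centred log2 values of CPM plus 1, among 719 other names with at least 50 counts in a column. Nearest to miR-126a-3p was miR-31-5p, a microRNA of epithelia, at a distance of 0.68. Its levels were 355 (wild-type), 2169 (Eed-/-), 738 (Ezh2-/-) and 93.7 CPM (Jarid2-/-). It was followed by miR-196a-1-3p of the Hox clusters (1.05), miR-1968-5p (1.40), miR-27a-5p (1.65) and miR-155-5p (1.68), a microRNA of activated immune cells. Both miR-31-5p and miR-155-5p are also on the list of endothelial microRNAs described below. Nearest to miR-126a-5p were miR-34c-3p, miR-1249-3p, miR-25-5p, miR-128-3p and miR-3060-3p, all within 0.19. For miR-126b-5p, a comparison added after its values were seen, the nearest were miR-5099 (0.81), miR-1981-5p (0.90), miR-101c (0.94), miR-744-5p (1.10) and miR-20b-3p (1.11). MiR-5099 had 165 (wild-type), 995 (Eed-/-), 109 (Ezh2-/-) and 2358 CPM (Jarid2-/-). Each distance rests on 4 columns.

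Other microRNAs reported to act in vessel endothelium were called in both directions in each mutant. Of 31 listed names, all tested, 8 were higher and 4 lower in Eed-/-, 3 higher and 12 lower in Ezh2-/-, and 3 higher and 12 lower in Jarid2-/-. As shares of the list these are 25.8% and 12.9%, 9.68% and 38.7%, and 9.68% and 38.7%, beside 17.5% and 15.0%, 4.90% and 24.5%, and 16.3% and 22.8% of all tested loci. The shares of all tested loci include many loci with few counts. With a minimum of 100 counts they were 24.5% higher and 20.2% lower in Eed-/-, and 6.80% and 32.5% in Ezh2-/-, nearer to those of the list. With the RPM denominators 14 were higher and 2 lower in Eed-/-, 5 and 8 in Ezh2-/-, and 9 and 9 in Jarid2-/-. The median log2 ratios were 0.10, -0.61 and -0.44, beside 0.08, -0.44 and -0.17 for all tested loci, and their sign turned with TMM in Eed-/- (-0.027) and Ezh2-/- (0.10) and with the RPM denominators in Jarid2-/- (0.055). In Eed-/- the highest were the Hox cluster microRNAs miR-10b-5p, 33.2-fold higher (29.9 to 36.9), and miR-10a-5p, 29.3-fold higher (25.5 to 33.7), and miR-19a-3p of the miR-17 to miR-92 cluster, 8.74-fold higher (8.68 to 8.81). The lowest in Eed-/- were the hypoxia-induced miR-210-3p, 5.99-fold lower (5.90 to 6.07), miR-214-3p, 4.55-fold lower (3.26 to 6.44), and miR-27b-3p, 2.56-fold lower (2.49 to 2.62).

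In Ezh2-/- the highest of the list were miR-20a-5p of the miR-17 to miR-92 cluster, 3.75-fold higher (3.71 to 3.79), miR-503-5p, 2.51-fold (2.21 to 2.86), and miR-31-5p, 2.08-fold (2.03 to 2.13). Their log2 ratios were 1.91, 1.26 and 1.05, beside 1.71 for miR-126a-3p. The lowest in Ezh2-/- was miR-221-3p, which restrains the stem cell factor receptor Kit, with 128 counts against 5252, 55.3-fold lower (46.4 to 66.4). By log2 ratio with 1 CPM added, the next were miR-210-3p and miR-218-5p, which lies in the Slit genes. They were 9.87-fold (9.67 to 10.1) and 6.89-fold (6.66 to 7.12) lower. Without the added CPM, miR-214-3p, with 4 counts against 128, was lower than these 2, at 43.1-fold (16.4 to 160.7). In Jarid2-/- miR-19a-3p was 5.63-fold higher (5.58 to 5.68), miR-20a-5p 3.81-fold (3.76 to 3.86) and let-7f-5p 2.79-fold (2.55 to 3.04). The lowest there were miR-210-3p, 40.2-fold lower (37.3 to 43.4), miR-214-3p, with 3 counts against 128, a 15.2-fold lower level (5.09 to 74.8), and miR-221-3p, 4.67-fold lower (4.22 to 5.18).

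The ES cell label was checked against the miR-290 and miR-302 clusters, whose 24 names were all detected and made up 39.5% to 46.5% of microRNA counts. Single names of these clusters were not all as steady as their sum. MiR-294-3p had 152826 (wild-type), 115428 (Eed-/-), 164809 (Ezh2-/-) and 151279 CPM (Jarid2-/-). MiR-294-5p had 96.5, 6968, 17.5 and 3804 CPM in the same order. Of 9 blood microRNA names, 7 or 8 had a count in each column, with miR-223-5p at 0 throughout. Their summed level was 5887 (wild-type), 4627 (Eed-/-), 9342 (Ezh2-/-) and 2870 CPM (Jarid2-/-), mostly miR-150-5p. The members of the list did not share an order. MiR-142-5p was lowest in Eed-/- (2.44 CPM, against 212.5 in wild-type, 133.9 in Ezh2-/- and 39.2 in Jarid2-/-), as were miR-142-3p (2.06 CPM) and miR-451a (19.7 CPM). MiR-144-3p was at 0 in Jarid2-/-. Of 11 muscle microRNA names, 9 or 10 had a count, with miR-1a-2-5p at 0 in every column. Their sum was 1272 CPM in wild-type and between 498 and 515 CPM in the mutants. It was mostly miR-145a-5p, with 1079 (wild-type), 417 (Eed-/-), 462 (Ezh2-/-) and 481 CPM (Jarid2-/-). Members of this list did not share an order either. MiR-143-3p was lower in Eed-/- than in wild-type (49.9 against 178.8 CPM). There miR-206-3p (15.9 against 0.757 CPM), miR-1a-3p (7.38 against 4.62) and miR-133a-3p (2.81 against 1.51) were higher. The part of other cell types in the miR-126 levels was not tested, and fewer cells of a type and less RNA per cell cannot be told apart in bulk samples.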

How the data were processed

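Small RNA of 18 to 40 nt was gel-selected from CJ7 ES cells and sequenced on a SOLiD instrument, per the labels' protocols. Cutadapt, Bowtie and build mm9 are named in the submitters' processing notes. How reads with several matches were treated was not stated in any source used here. Both loci of miR-24-3p had nearly equal counts, 143966 and 143967 in wild-type. Whether such reads were counted at each locus or divided between loci was not tested. The deposited columns hold, per the file headers, raw read counts of each mature locus (miRBase release 20) and the authors' RPM (the same counts scaled to 1000000 reads). The RPM denominators were computed back from counts and RPM, and microRNA counts were 9.66% to 15.8% of them. Columns were assigned by name: EZH2, HEED, JUMONJI (the older name of Jarid2) and, least directly, undiffCJ7 for wild-type. All columns were assigned.

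CPM, ratios, Clopper-Pearson and Poisson 95% intervals were computed with SciPy 1.17.1, TMM factors with edgeR 4.0.16, size factors with DESeq2 1.42.0 and folding with RNAfold 2.7.2. With 1 column per genotype no edgeR or DESeq2 test was run. RefSeq's table matched both hairpins and 3 of the 4 mature names (not miR-126a-5p). The members and lists were chosen with earlier results of these data known. Named microRNAs were the members, the 3 highest and 3 lowest of the vascular list per mutant, the 5 nearest patterns to each miR-126a arm, the 5 opposite-strand pairs with most counts and any locus within 100 kb. Calls were also made on counts simulated over 2035 loci for every mutant and wild-type, where each change size was given to 50 loci. Of log2 changes of 3 or -3, 100% were called. Of those of 1.5, 98% (Eed-/-), 98% (Ezh2-/-) and 100% (Jarid2-/-) were called, and of those of -1.5, 92%, 94% and 98%. Of unchanged loci, 0% were called. With 1 column per genotype, variation between libraries could not be estimated, so this 0% is not a rate of false calls for the real columns.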

Additional observations from a re-analysis of the deposited data

How the results depend on the processing

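Against wild-type, the calls of miR-126a-3p in all 3 mutants, and of miR-126b-5p in Eed-/- and Jarid2-/-, were the same under all 6 alternatives of scaling and pseudocount, with log2 ratios of 2.11 to 3.04, 1.62 to 2.43 and -2.03 to -1.40 for miR-126a-3p (Eed-/-, Ezh2-/-, Jarid2-/-) and 1.13 to 2.32 and 2.34 to 3.52 for miR-126b-5p. The lower call of miR-126b-5p in Ezh2-/- was lost with 10 CPM added (-0.68), which is about the wild-type level of this locus. The cause of the other changes was not tested. MiR-126a-5p turned positive with the RPM denominators in Eed-/- (0.60) and Jarid2-/- (0.32). For Eed-/- against Ezh2-/- it was -1.19 with TMM and -1.07 with median-ratio factors, for Eed-/- against Jarid2-/- -0.039 and -0.041, and for Ezh2-/- against Jarid2-/- 1.15 and 1.03. MiR-126a-3p in Eed-/- against Ezh2-/- was -0.23 with TMM and -0.11 with median-ratio factors. MiR-126b-3p was called higher in Eed-/- with the RPM denominators (1.09), in Ezh2-/- with TMM (1.19) and median-ratio factors (1.02), and in Ezh2-/- against Jarid2-/- with both (1.16 and 1.06). In Jarid2-/- it was -0.046 with median-ratio factors and -0.069 when the miR-290 cluster and the imprinted Gtl2 region were left out of the totals, and in Eed-/- against Ezh2-/- 0.19 with the RPM denominators. In all, 9 values of the members changed sign, 9 gained a call and 1 lost one, and 125 kept direction and call.

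Shares of tested loci called moved too. In Eed-/- 31.9% were higher and 9.67% lower with the RPM denominators, 9.58% higher with 10 CPM added, and 11.5% higher and 9.82% lower with a minimum of 1 count, which tests more low loci. In Ezh2-/- 14.4%, 11.0% and 9.30% were higher with TMM, median-ratio factors and RPM denominators, and 16.3% lower with TMM; 8.70% and 2.60% were higher with 0.1 and 10 CPM added, and 16% lower with 10; a minimum of 1 count gave 3.09% and 15.4%. In Jarid2-/- 26.6% were higher with the RPM denominators, 10.0% with 10 CPM added, and 10.2% higher and 14.3% lower with a minimum of 1 count. In the vascular list, the RPM denominators gave 14 higher and 2 lower in Eed-/-, 5 higher in Ezh2-/- and 9 higher in Jarid2-/- with a median of 0.055, TMM and median-ratio factors gave 5 higher in Ezh2-/-, and the median was -0.027 (TMM) and -0.12 (median-ratio) in Eed-/- and 0.10 in Ezh2-/- with TMM.

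With both hairpins summed, the 5p share was 40.9% in Eed-/- and 93.2% in Jarid2-/-. The miR-126b share was 0.866%, 1.50%, 1.23% and 1.01% at the miR-126a-5p site (wild-type, Eed-/-, Ezh2-/-, Jarid2-/-) and 9.43%, 6.45%, 0.803% and 78.2% at the miR-126a-3p site. No paired analysis was possible because each genotype had 1 column without a replicate of its own, and none could be left out in turn. The comparison of miR-126b-3p in Jarid2-/- and wild-type rests on 26 and 70 counts.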
